A study of Mus musculus with 4 samples.

Results

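The 10 genes described here encode the light-sensing machinery of cone photoreceptors: the cone opsins Opn1sw and Opn1mw, cone arrestin (Arr3), the cone transducin subunits Gnat2, Gnb3 and Gngt2, the cone cyclic GMP phosphodiesterase subunits Pde6c and Pde6h, and the cone channel subunits Cnga3 and Cngb3. They were chosen by symbol from knowledge of the cone pathway, with earlier results of these data already known. They were 10 of the 22558 gene symbols in the expression tables. Each was on a single row, and each had a valid estimate in all 4 libraries.

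The libraries held poly(A) RNA of retinal cells from slc:ICR mice at postnatal day 12, sorted by flow cytometry for Cd73, the Nt5e product found on the surface of rods and rod precursors. Cells with Cd73 (Cd73P) and without it (Cd73N) were each collected from wild-type (WT) retina and from Ezh2-cKO retina, which gave 4 groups with 1 library each. Ezh2 encodes the histone H3 methyltransferase of Polycomb repressive complex PRC2. In the Ezh2-cKO mice a floxed Ezh2 allele was recombined by DKK3-Cre, which is active in retinal progenitors, so the deletion was not limited to rods or cones, and the WT animals were normal littermates. The number of retinas behind each P12 library was not given in the sources used here. With 1 library per group no difference below has a replicate check, no p-value was computed, and every standard error (SE) given covers only counting error within the libraries.

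In cones, light isomerises the chromophore of an opsin, the opsin activates transducin, and the transducin alpha subunit releases the phosphodiesterase from its inhibitory subunits. The enzyme then breaks down cyclic GMP and the cyclic nucleotide-gated channel closes, while arrestin shuts off the excited pigment. Rods use a parallel set of paralogous proteins, and most mouse cones carry a mixture of the short-wavelength opsin Opn1sw and the middle-wavelength opsin Opn1mw. Because Cd73 marks rods, the design asks in which fraction cone transcripts were recovered and whether their level differed between the genotypes.

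The labels were checked first. Levels are in FPKM, a fragment number scaled to the exon length of the gene and to all fragments mapped in that library. Nt5e was at 0.84 (WT) and 0.61 FPKM (Ezh2-cKO) in Cd73N, against 125 and 123 FPKM in Cd73P. Ezh2 was at 14.1 FPKM in Cd73N WT, 15.9 in Cd73N Ezh2-cKO, 5.38 in Cd73P WT and 3.45 in Cd73P Ezh2-cKO. In Cd73N its level was thus not lower where the label says Ezh2-cKO, and the knockout libraries are called by their label throughout. The levels are given per gene, so the floxed part of Ezh2 could not be looked at on its own. Xist, the transcript of the inactive X chromosome, was at 52.2 and 47.0 FPKM in the WT libraries and at 240 and 95.6 FPKM in the libraries labelled Ezh2-cKO (Cd73N first), and 4 Y-linked genes were at 1.74 to 13.1 FPKM in the WT libraries and at 0.70 FPKM or less in the others. Sex-linked transcripts therefore differed between the genotypes, and sex and genotype cannot be told apart for the X-linked members Opn1mw and Arr3.

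Promoter sequences are given for the opsins, for Arr3, the member with the largest genotype difference in Cd73N, and for Gnat2, the only one of the 6 members with a promoter in the table to hold a Crx and Otx2 core. Of the 10 members, 6 matched the RefSeq promoter table (build GRCm38.p6, 7 promoters of 300 bases, from 250 bases before to 50 after the annotated start). Each sequence was found exactly once in mm9, the build of the expression tables, at the positions given here, and is written 5′ to 3′ on the strand of the gene. Capitals mark the 6-letter core TAATCC bound by the photoreceptor homeodomain factors Crx and Otx2, or the nuclear receptor half-site AGGTCA, each searched on both strands.
Opn1sw, chr6:29330464-29330763, minus strand: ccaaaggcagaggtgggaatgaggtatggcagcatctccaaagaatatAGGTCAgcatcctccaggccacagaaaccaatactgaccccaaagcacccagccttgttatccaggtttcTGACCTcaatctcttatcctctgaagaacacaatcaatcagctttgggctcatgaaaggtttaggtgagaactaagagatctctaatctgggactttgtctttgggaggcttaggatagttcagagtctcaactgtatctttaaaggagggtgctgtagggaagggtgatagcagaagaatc
Opn1mw, chrX:71372555-71372854, plus strand: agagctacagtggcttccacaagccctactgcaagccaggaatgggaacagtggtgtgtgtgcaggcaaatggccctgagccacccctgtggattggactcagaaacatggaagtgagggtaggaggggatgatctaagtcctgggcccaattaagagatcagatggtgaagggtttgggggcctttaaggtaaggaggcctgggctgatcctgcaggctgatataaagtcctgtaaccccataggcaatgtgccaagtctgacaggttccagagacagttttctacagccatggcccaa
Arr3, chrX:97800586-97800885, plus strand: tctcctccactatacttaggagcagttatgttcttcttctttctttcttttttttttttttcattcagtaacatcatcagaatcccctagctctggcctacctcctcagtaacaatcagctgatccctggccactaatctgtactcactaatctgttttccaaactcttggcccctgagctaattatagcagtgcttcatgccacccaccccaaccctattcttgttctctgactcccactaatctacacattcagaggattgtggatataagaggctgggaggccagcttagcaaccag
Gnat2, chr3:107895734-107896033, plus strand: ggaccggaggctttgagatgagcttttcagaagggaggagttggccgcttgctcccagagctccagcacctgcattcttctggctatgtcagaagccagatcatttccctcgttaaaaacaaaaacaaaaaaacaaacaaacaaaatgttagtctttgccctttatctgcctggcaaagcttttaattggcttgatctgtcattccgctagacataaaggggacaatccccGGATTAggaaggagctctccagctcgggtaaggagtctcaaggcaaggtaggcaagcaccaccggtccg

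The Opn1sw promoter held 2 half-sites, AGGTCA starting 202 bases upstream of the annotated start and its reverse complement TGACCT starting 132 bases upstream. The Gnat2 promoter held the reverse complement GGATTA of the homeodomain core, starting 19 bases upstream. Neither set of letters was present in the windows of Opn1mw, Arr3, Pde6h or Cnga3. Over all 32851 promoters of the table, 7.06% held the homeodomain core and 16.3% held the half-site, and among the cone members 1 of 7 promoters held each. Among the rod counterparts, 4 of 6 promoters held the core and 3 of 6 the half-site. These are matches of letters only. Sites that differ from the 6 letters in any base were not searched, so a window without a match may still hold such a site.

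The cone genes were found in the Cd73N fraction in both genotypes. All 10 had a higher FPKM in Cd73N than in Cd73P, and the level in the Cd73P library was a median of 6.29% of the Cd73N level for WT and 2.15% for the Ezh2-cKO label. Summed over the 10 genes, FPKM was 4721 in Cd73N WT, 6078 in Cd73N Ezh2-cKO, 422 in Cd73P WT and 200.3 in Cd73P Ezh2-cKO. That was 1.16%, 1.65%, 0.138% and 0.0630% of the FPKM summed over the genes with OK status in each library, small RNAs left out. In these bulk samples fewer cells of a type and less RNA per cell cannot be told apart.

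**Figure D1:**
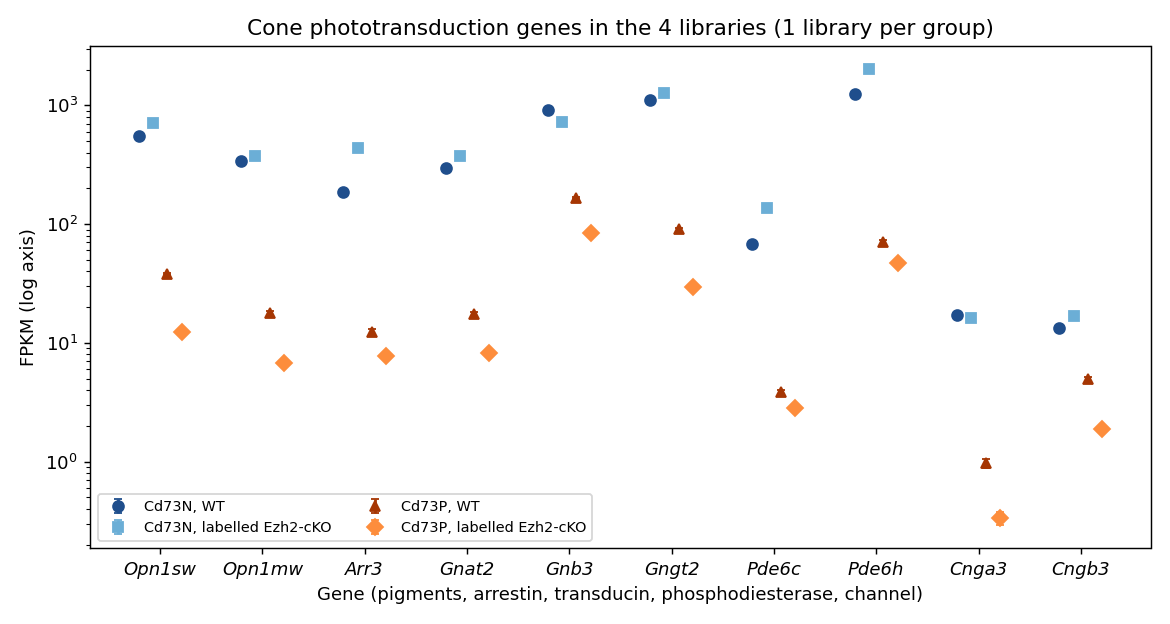
FPKM (log axis) of each cone gene in the 4 libraries, 1 point per library, with bars of 1 SE of counting error. The Cd73N points of every gene lie above its Cd73P points, and the Cd73P library labelled Ezh2-cKO is the lowest of the 4 for all 10 genes.

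The order of the libraries was the same for 8 of the 10 genes, with Cd73N Ezh2-cKO highest, then Cd73N WT, Cd73P WT and Cd73P Ezh2-cKO. Gnb3 and Cnga3 were the exceptions, with Cd73N WT above Cd73N Ezh2-cKO, and for Cnga3 the deposited bounds of those neighbours overlapped. FPKM is per length, so genes can be set side by side. In Cd73N WT the deposited FPKM was highest for Pde6h, at 1237, and lowest for Cngb3, at 13.2. The place of Pde6h depends on the number used, since its FPKM lay far above its deposited bounds. At the midpoint of the bounds, a setting chosen after the data were seen, Gngt2 was highest at 1117 FPKM, followed by Gnb3 at 815 and Pde6h at 794.

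Opn1sw (chromosome 6, 29326671 to 29330513, minus strand), the short-wavelength pigment, was at 551.7 FPKM in Cd73N WT, 705.8 in Cd73N Ezh2-cKO, 38.0 in Cd73P WT and 12.4 in Cd73P Ezh2-cKO. It shares 5 bases with Calu, which was at 105 to 113 FPKM in Cd73N and 23.0 to 32.6 in Cd73P, and the library kit did not mark strand. Opn1mw (chromosome X, 71372805 to 71396094), the middle-wavelength pigment, was at 338.5, 373.2, 17.7 and 6.72 FPKM in the same order. Both pigments were lowest in the Cd73P library labelled Ezh2-cKO, where Opn1sw was at 1.76% and Opn1mw at 1.8% of its level in Cd73N.

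Within each library Opn1sw was the higher opsin. It made up 62.0% of the summed opsin FPKM in Cd73N WT, 65.4% in Cd73N Ezh2-cKO, 68.2% in Cd73P WT and 64.8% in Cd73P Ezh2-cKO. The log2 ratio of Opn1mw over Opn1sw was -0.70 with an SE of 0.018, -0.92 with an SE of 0.015, -1.10 with an SE of 0.078 and -0.88 with an SE of 0.10 in that order. The ratio was lower in the library labelled Ezh2-cKO in Cd73N and higher in Cd73P, where the SEs were wide relative to the difference, and Opn1mw is X-linked. This ratio also depends on which deposited number is used. The value of Opn1mw exceeded its deposited upper bound in all 4 libraries and that of Opn1sw was below its lower bound in Cd73N, and ratios taken from the bounds ran from -1.02 to -0.93 in Cd73N WT and from -1.23 to -1.16 in Cd73N Ezh2-cKO.

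Arr3 (chromosome X, 97800836 to 97813832), which quenches activated cone opsin, was at 186.0 FPKM in Cd73N WT, 437.9 in Cd73N Ezh2-cKO, 12.4 in Cd73P WT and 7.81 in Cd73P Ezh2-cKO. It was the member that differed most between the genotypes in Cd73N, 2.35-fold higher in the library labelled Ezh2-cKO (log2 ratio 1.23, SE 0.022). Relative to the summed opsins it was at 0.209 and 0.406 in Cd73N and at 0.222 and 0.409 in Cd73P (WT first). The arrestin-to-opsin ratio was therefore higher in the library labelled Ezh2-cKO in both fractions, although the Arr3 level itself was lower there in Cd73P.

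Gnat2 (chromosome 3, 107895986 to 107904203), the alpha subunit that activates the phosphodiesterase, was at 293.9, 372.3, 17.4 and 8.25 FPKM in the order Cd73N WT, Cd73N Ezh2-cKO, Cd73P WT and Cd73P Ezh2-cKO. Gngt2 (chromosome 11, 95703609 to 95707045), the gamma subunit, was at 1103, 1272, 90.2 and 29.8 FPKM, and it shares 182 bases with Abi3, which was at 0.19 to 7.64 FPKM. Gnb3 (chromosome 6, 124784258 to 124790293), the beta subunit, was at 912.6, 728.5, 165.9 and 83.6 FPKM. Gnb3 was the exception among the transducin subunits, since in Cd73N it was the only one with a lower level in the library labelled Ezh2-cKO (log2 ratio -0.32, SE 0.010) and kept the larger share in Cd73P, at 18.2% of its Cd73N level for WT and 11.5% for the Ezh2-cKO label.

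Gnb3 is also expressed by ON bipolar cells. Grm6, the glutamate receptor of those cells, was at 120, 64.3, 5.91 and 1.01 FPKM in the same order. Trpm1, their transduction channel, was at 42.9, 29.1, 8.19 and 1.39 FPKM. Both, like Gnb3, were lower in the libraries labelled Ezh2-cKO in both fractions. Of the 10 bipolar genes listed, 9 were lower and 1 was higher in each fraction, not the same gene in both. All 10 cone members were also lower in Cd73P, so there the likeness is not particular to Gnb3. The ratio of Gnb3 to Gnat2 was 3.11 in WT and 1.96 in the library labelled Ezh2-cKO in Cd73N and 9.51 and 10.1 in Cd73P, while that of Gngt2 to Gnat2 stayed between 3.42 and 5.17. The part of bipolar transcripts in the Gnb3 values was not tested.

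Pde6c (chromosome 19, 38207271 to 38258441), the catalytic subunit, was at 68.1 FPKM in Cd73N WT, 137.0 in Cd73N Ezh2-cKO, 3.86 in Cd73P WT and 2.85 in Cd73P Ezh2-cKO. Pde6h (chromosome 6, 136903044 to 136912004), the inhibitory gamma subunit, was at 1237, 2018, 70.8 and 46.7 FPKM. In Cd73N both had a higher level in the library labelled Ezh2-cKO, Pde6c by 2.0-fold (log2 ratio 1.0, SE 0.024) and Pde6h by 1.63-fold (log2 ratio 0.71, SE 0.017). The inhibitory subunit was at 18.2, 14.7, 18.4 and 16.4 times the catalytic one in the 4 libraries. The Pde6h FPKM exceeded its upper bound in all 4 while that of Pde6c lay within its bounds, and from the midpoints of the bounds the same ratios were 11.5, 9.32, 12.1 and 10.9.

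Cnga3 (chromosome 1, 37276106 to 37320229), the channel subunit that can form a channel by itself, was at 17.1 FPKM in Cd73N WT, 16.2 in Cd73N Ezh2-cKO, 0.96 in Cd73P WT and 0.33 in Cd73P Ezh2-cKO. Cngb3 (chromosome 4, 19207997 to 19437770), the modulatory subunit, was at 13.2, 16.8, 4.98 and 1.87 FPKM. The channel genes were the weakest members in Cd73N. Cngb3 stood apart from the rest in Cd73P WT, where it was at 37.6% of its Cd73N level. The ratio of Cnga3 to Cngb3 was 1.29 and 0.963 in Cd73N and 0.194 and 0.179 in Cd73P (WT first).

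On the log2(FPKM + 1) scale, which understates ratios of weakly expressed genes, the Cd73P against Cd73N ratios in WT ran from -4.18 (Opn1mw) to -1.25 (Cngb3) with a median of -3.82. Called at 1.5-fold, the threshold the study used, 10 of 10 members were above in Cd73N and 0 in Cd73P, where 27.9% and 9.07% of 21700 genes were. Scaling the libraries by the median ratio changed the split over all genes to 21.8% and 14.0%, and 10 members were still called. For the Ezh2-cKO label the ratios ran from -5.72 (Opn1sw) to -2.63 (Cngb3) with a median of -5.35, and again 10 of 10 were higher in Cd73N and 0 in Cd73P, against 29.1% and 8.40% of 21699 genes. Under median scaling that split was 24.4% and 12.1%. Among genes at FPKM 1 or more in either library, 45.9% were called higher in Cd73N and 15.4% in Cd73P for WT. For the Ezh2-cKO label those shares were 45.6% and 13.8%. The median among these genes was -0.47 for WT and -0.46 for Ezh2-cKO.

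The Cd73P level as a percent of the Cd73N level was lower in the libraries labelled Ezh2-cKO for 10 of 10 members. In WT, 7 members lay between 5.22% and 6.89%, Gngt2 was at 8.18%, Gnb3 at 18.2% and Cngb3 at 37.6%. In the libraries labelled Ezh2-cKO, 8 members lay between 1.76% and 2.34%, Cngb3 was at 11.1% and Gnb3 at 11.5%. Over 8 other genes known from cones the median was 7.59% for WT and 2.94% for the Ezh2-cKO label, lower for 7 of them. The same percentage was a median of 6.94% and 2.29% over 10 bipolar genes (WT first), lower in the libraries labelled Ezh2-cKO for 9 of them, and 5.09% and 3.63% over 7 Müller glia genes, lower for 7. The shift was therefore also present in genes of other Cd73N cell types. The percentage was lower for 3 of 4 microglia genes as well, but for 0 of 8 rod counterparts. The same count over all genes was not computed. The percentages are built from the same 4 libraries as the genotype ratios given next.

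**Figure D2:**
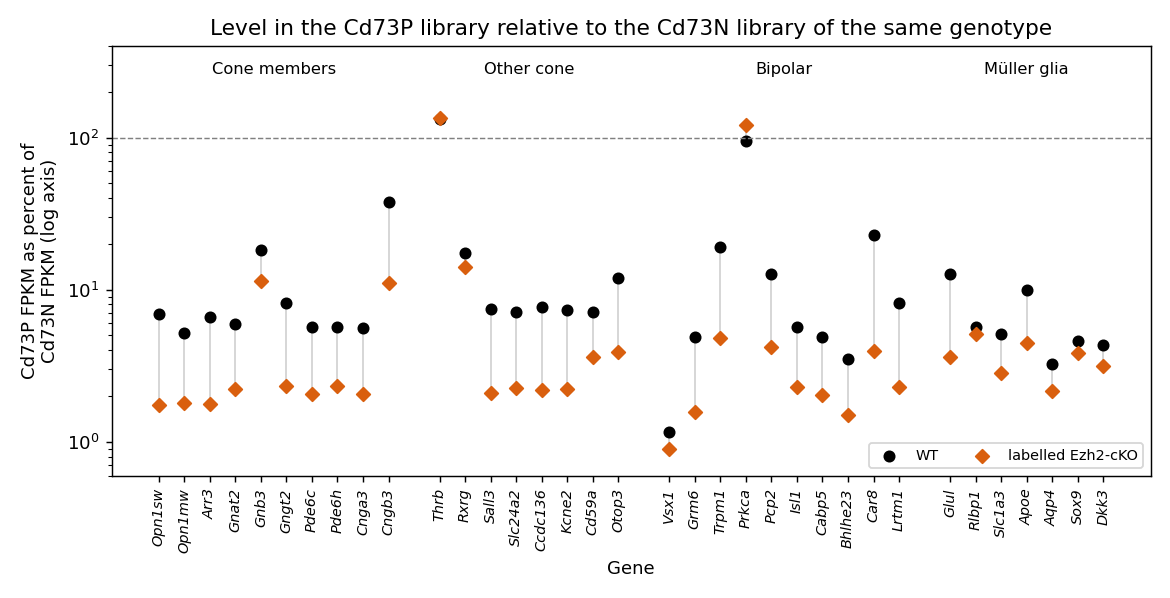
FPKM in the Cd73P library as a percent of FPKM in the Cd73N library of the same genotype (log axis), for the 10 cone members, 8 other genes known from cones, 10 bipolar genes and 7 Müller glia genes. Circles are WT and diamonds the libraries labelled Ezh2-cKO, joined by a line per gene, and the dashed line is 100%. The diamond lies below the circle for all 10 members, and Cngb3 and Gnb3 sit above the other members in both genotypes.

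Between the genotypes in Cd73N, 3 of 10 members were called higher in the library labelled Ezh2-cKO (Arr3, Pde6c and Pde6h), where 7.18% of 21701 genes were. Of the members 0 were called lower, where 1.71% of genes were. Among genes at FPKM 1 or more in either library those shares were 11.6% and 2.87%. The median of the 10 log2 ratios was 0.33, with a range from -0.32 (Gnb3) to 1.23 (Arr3), and it was also 0.33 without the X-linked Opn1mw and Arr3. Opn1sw (0.35), Gnat2 (0.34), Cngb3 (0.33), Gngt2 (0.21), Opn1mw (0.14) and Cnga3 (-0.08) lay inside the threshold. The Cnga3 ratio had an SE of 0.050 and overlapping bounds, and its sign was positive, at 0.07, when libraries were scaled by the FPKM sum.

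In Cd73P the genotypes differed the other way. There 8 of 10 members were called lower in the library labelled Ezh2-cKO, where 2.38% of 21702 genes were. Of the members 0 were called higher, where 2.26% of genes were. Among genes at FPKM 1 or more in either library those shares were 4.53% and 4.31%. The median of the 10 log2 ratios was -0.99. Gngt2 (-1.57, SE 0.081), Opn1sw (-1.54, SE 0.054), Opn1mw (-1.27, SE 0.11), Cngb3 (-1.06, SE 0.075), Gnat2 (-0.99, SE 0.089) and Gnb3 (-0.98, SE 0.031) were past the threshold of 0.585, although Cngb3 did not pass with a pseudocount of 5 (-0.54). Arr3 (-0.60, SE 0.10) and Pde6h (-0.59, SE 0.090) were within 1 SE of it, and neither passed when libraries were scaled by the median ratio or with a pseudocount of 5. Pde6c (-0.34, SE 0.081) and Cnga3 (-0.56, SE 0.081) did not pass, although the Cnga3 ratio was -1.53 without a pseudocount. All of these levels in Cd73P were at most 18.2% of those in Cd73N, apart from that of Cngb3 in WT. The paper states that its cell sorting favoured speed over purity. The part of carried-over Cd73N cells in these Cd73P values was not tested.

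**Figure D3:**
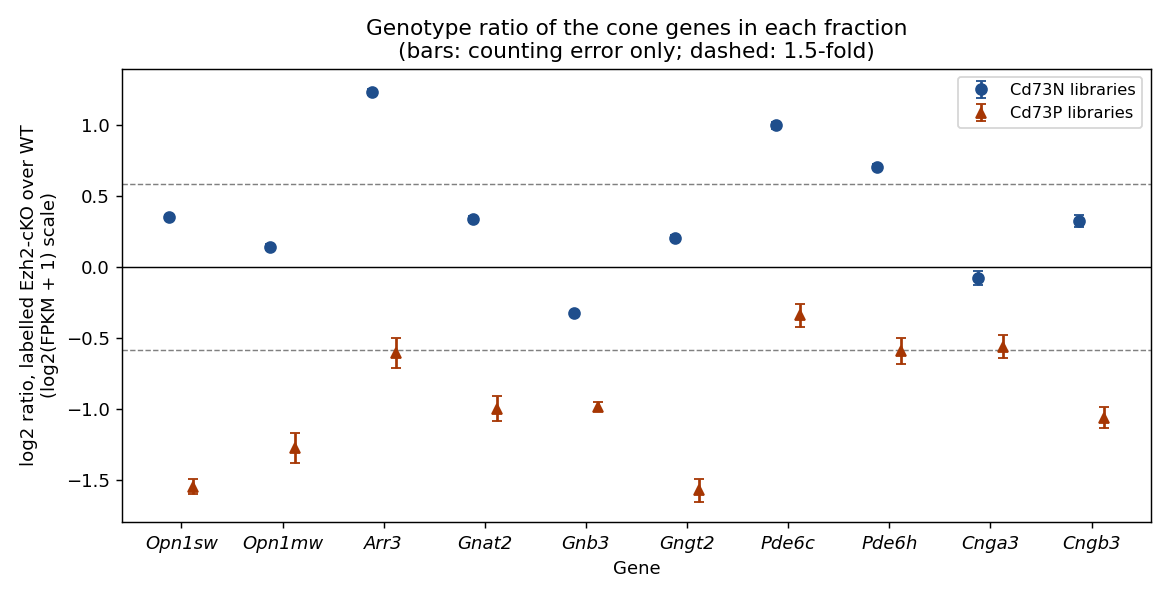
log2 ratio of the library labelled Ezh2-cKO over WT for each cone gene, on the log2(FPKM + 1) scale, in Cd73N (circles) and Cd73P (triangles). Bars are 1 SE of counting error and dashed lines mark 1.5-fold. Arr3, Pde6c and Pde6h lie above the upper line in Cd73N, and all 10 Cd73P points lie below 0.

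Markers of other cells moved between the same libraries. Of 7 Müller glia genes, the library labelled Ezh2-cKO had 7 called higher in Cd73N and 6 in Cd73P, and their summed FPKM was 925 and 5060 in Cd73N and 83.6 and 196 in Cd73P (WT first). Of 10 bipolar genes, 6 were called lower in Cd73N and 8 lower in Cd73P, and their summed FPKM was 1627 and 884 in Cd73N and 164 and 55.0 in Cd73P. The Cd73P pattern of the bipolar list (median -1.61) thus had the sign of the cone members, while that of the Müller list (median 1.04) did not. Of 6 early response genes, which are induced by stress and dissociation, 5 were higher in Cd73N (median 2.31), and in Cd73P 2 were higher and 2 lower. The part of cell composition or of the dissociation in the cone values was not tested.

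The amacrine, ganglion cell, horizontal cell and microglia lists had lower summed levels. The 7 amacrine genes summed to 9.94 to 26.9 FPKM, of which Slc6a9, also a glycine transporter of other cells, made up most, and Gad1, Gad2 and Slc32a1 were at 1.74 FPKM or less. The 6 ganglion cell genes summed to 1.40 to 9.71 FPKM, with Pou4f2 listed at 0 in Cd73P WT, and the 4 horizontal cell genes to 0.36 to 1.89 FPKM. The 4 microglia genes summed to 18.8 and 28.8 FPKM in Cd73N (WT first), with 3 called higher in the library labelled Ezh2-cKO, and to 4.51 and 6.05 FPKM in Cd73P, with 0 called. In Cd73N the library labelled Ezh2-cKO had 1 of 7 amacrine genes higher, 1 of 6 ganglion cell genes lower and 0 of 4 horizontal cell genes either way, and in Cd73P the only call among these 3 lists was 1 amacrine gene lower.

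The arrestin, transducin, phosphodiesterase and channel genes of cones were then set against their rod counterparts within each library, where scaling between libraries does not enter. In Cd73N WT the cone gene was the higher one in 8 of 9 pairs, with a median log2 ratio of 2.02 (Cngb3 and Cngb1, at 13.2 and 12.5 FPKM, were at nearly the same level), and in Cd73N Ezh2-cKO it was higher in 8 of 9, with a median of 2.67. The exception in both was Arr3, which was below rod arrestin (Sag, 389 and 462 FPKM). Its log2 ratio was -1.06 in WT and -0.08 in the library labelled Ezh2-cKO, so the arrestins were at nearly the same level in the latter. In Cd73P the rod gene was higher in every pair with valid values, 8 in WT (median -6.50) and 9 in the library labelled Ezh2-cKO (median -7.30). No value could be set for the rod transducin beta subunit Gnb1 in Cd73P WT, where the estimate failed.

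**Figure D4:**
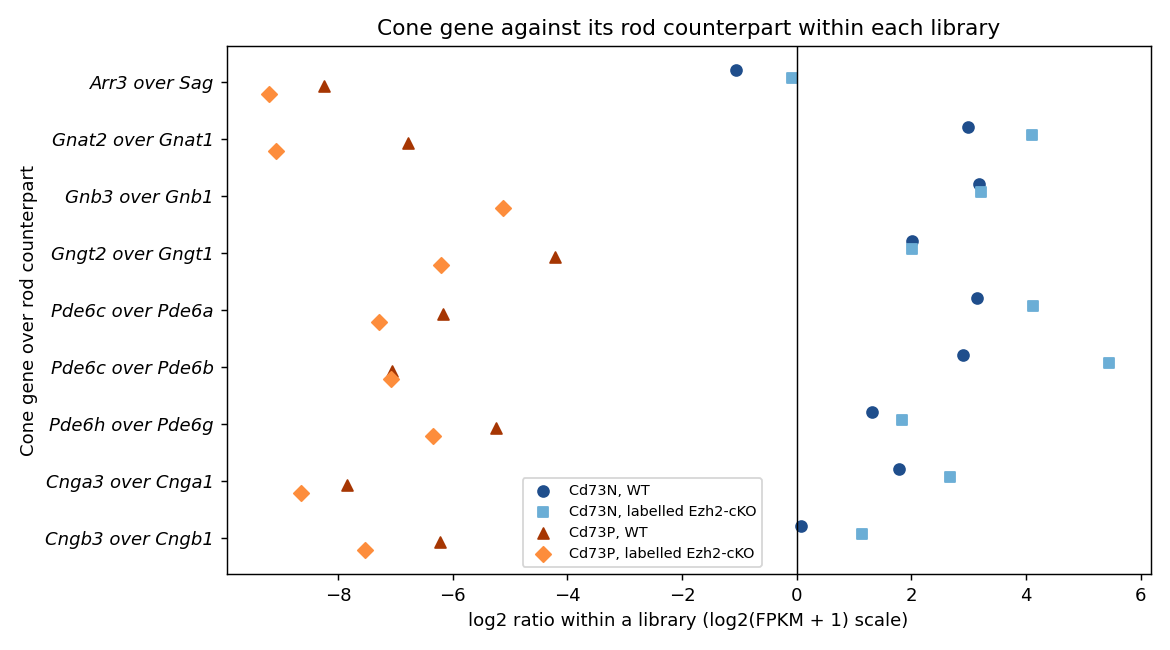
log2 ratio of 8 cone genes over their rod counterparts (9 pairs) within a library, on the log2(FPKM + 1) scale, with 1 point per library. In Cd73N the points lie to the right of 0 except for Arr3 over Sag, and in Cd73P they lie to the left, and Gnb3 over Gnb1 has no point for Cd73P WT.

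All rod counterparts with valid values were called higher in Cd73P than in Cd73N, 8 for WT and 9 for the Ezh2-cKO label. In Cd73N 4 of 9 rod counterparts were called lower in the library labelled Ezh2-cKO and 0 higher. The rod transducin alpha subunit Gnat1 went from 36.2 to 20.6 FPKM, the catalytic subunit Pde6b from 8.28 to 2.18, and the channel subunits Cnga1 from 4.25 to 1.71 and Cngb1 from 12.5 to 7.14. In Cd73P, 2 of the 8 rod counterparts with a valid value in both were called higher and 0 lower. Gnat1 went from 2016 to 4999 FPKM and the catalytic subunit Pde6a from 348 to 603 FPKM. In Cd73N the cone-over-rod ratio differed most between the genotypes for Pde6c over Pde6b, at 2.90 in WT and 5.44 in the library labelled Ezh2-cKO on the log2 scale, where both genes were called. It differed least for Gngt2 over Gngt1 (2.02 and 2.01) and Gnb3 over Gnb1 (3.18 and 3.21).

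Genes of the light response shared by rods and cones did not pattern with the cone members between the fractions, or between the genotypes in Cd73P. Of 11 such genes, 10 were called higher in Cd73P in each genotype and 1 was called higher in Cd73N. The exception was Guca1a, the guanylate cyclase activator GCAP1, at 398 and 520 FPKM in Cd73N and 39.4 and 70.3 FPKM in Cd73P (WT first). Unlike the cone members, Guca1a was 1.77-fold higher in the Cd73P library labelled Ezh2-cKO (log2 ratio 0.82, SE 0.068). The other call between genotypes in this list was Guca1b, a further cyclase activator, which went from 181 to 450 FPKM in Cd73P. In Cd73N 0 of the 11 genes passed 1.5-fold between the genotypes, with a median of 0.21, and in Cd73P 2 were higher and 0 lower, with a median of 0.42. Of the 11 ratios in Cd73N, 9 were above 0, as were 8 of the 10 for the cone members.

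Of 8 other genes known from cones, 7 were called higher in Cd73N in each genotype. The exception was Thrb, the thyroid hormone receptor that directs middle-wavelength opsin expression, at 13.7 and 14.9 FPKM in Cd73N and 18.0 and 20.0 in Cd73P. Between the genotypes 0 of 8 passed 1.5-fold in Cd73N (median 0.24). In Cd73P 4 were called lower and 0 higher (median -0.50). Kcne2, a potassium channel subunit, went from 15.0 to 5.67 FPKM there, Ccdc136 from 6.89 to 2.70, Otop3, of the otopetrin proton channel family, from 3.03 to 0.95, and Cd59a, a complement regulator, from 2.58 to 1.13. Rxrg, the retinoid receptor of cones, was at 5.62 and 8.59 FPKM in Cd73N and at 0.98 and 1.21 in Cd73P (WT first), and passed in neither.

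Among 7 photoreceptor transcription factors, 6 were called higher in Cd73P in each genotype. The other one, Otx2, the regulator of photoreceptor and bipolar fate, was at 388 and 224 FPKM in Cd73N and at 328 and 225 in Cd73P. In Cd73N 3 were called lower in the library labelled Ezh2-cKO and 0 higher. They were Otx2, Nrl, the rod determinant, from 27.7 to 11.02 FPKM, and Nr2e3, which represses cone genes in rods, from 16.8 to 5.09 FPKM. In Cd73P 0 of 7 passed, and Nrl was at 1377 and 1615 FPKM and Nr2e3 at 1392 and 1117.

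The genes most like the cone members over the 4 libraries were ranked by the root mean square distance between a gene and the members' mean of centred log2(FPKM + 1), among 7589 other genes with FPKM of at least 10 in a library. The nearest were Ccdc136 (0.11), Nap1l5 (0.13), Adrb1 (0.16), Kif5c (0.17) and A930038C07Rik (0.17), against a median of 1.86 over the genes ranked. Ccdc136 was at 89.1, 122.8, 6.89 and 2.70 FPKM in the order Cd73N WT, Cd73N Ezh2-cKO, Cd73P WT and Cd73P Ezh2-cKO. Nap1l5 was at 79.3, 109.6, 5.18 and 2.59 FPKM. All 5 had their lowest level in the Cd73P library labelled Ezh2-cKO, which follows from choosing them by closeness to the members' mean. The distances of the members to their own mean ran from 0.29 (Gnat2) to 1.08 (Cngb3), with Gnb3 at 0.70. The distance describes 4 points per gene and is not a measure of shared function.

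The deposited bounds implied 1454 to 42537 fragments per member in Cd73N WT, 1511 to 54690 in Cd73N Ezh2-cKO, 118 to 6912 in Cd73P WT and 58.6 to 3082 in Cd73P Ezh2-cKO, with Cnga3 the lowest in Cd73P. The relative counting error was 0.43% to 2.62% in Cd73N and 1.2% to 13.1% in Cd73P. In 19 of the 40 member and library combinations the value exceeded its deposited upper bound, and in 2 it lay below the lower bound. Among all rows with OK status, values exceeded their upper bound in 3216 of 22723 in Cd73N WT and 3600 of 22719 in Cd73N Ezh2-cKO. In Cd73P such rows were 2673 of 22723 in WT and 2715 of 22727 in the library labelled Ezh2-cKO. The SEs given here come from these same bounds.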

How the data were processed

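RNA was measured in 4 libraries, 1 per group. The authors selected poly(A) RNA, generated 36-base single-end reads with an Illumina kit that does not mark strand, aligned them to mm9 with TopHat 2.0.8b (coverage search, up to 50 hits) and computed FPKM for RefSeq genes with the defaults of Cufflinks 2.1.1; bcl2fastq 1.8.4 is also listed in the submitters' processing notes. The deposited tables hold FPKM with lower and upper bounds and a status for 23021 rows per library. Reads with up to 50 hits can move between paralogues, and total read counts are not part of the tables, so depth was taken only as the fragments implied by the bounds.

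Rows sharing a symbol were summed (251 symbols) and 731 small RNA symbols were left out, which gave 21827 genes. A gene without OK status in either library of a comparison was left out of it. Differences of log2(FPKM + 1) were called at 1.5-fold, with no scaling between libraries. SEs took the width of the bounds as 4 SEs. The 10 members and the 14 gene lists were chosen with earlier results of these data known. Genes named were the members, their rod counterparts, Ezh2 and Nt5e, listed photoreceptor genes past 1.5-fold between genotypes, Grm6 and Trpm1 beside Gnb3, and the 5 genes nearest to the members' mean pattern. A few genes covered by the rule are left out of the text. Named beyond that rule, after their values were seen, were Thrb, Rxrg, Xist, Calu, Abi3, Gad1, Gad2, Car8, Egr1, Jun, Sall3, Slc24a2, Slc32a1, Slc6a9 and Pou4f2. Alternatives were other pseudocounts, scalings, thresholds, low-value filters, a demand that bounds do not overlap, and leaving out Gnb3 or the X-linked members. The midpoints of the bounds were added after the data were seen. Coordinates are 1-based on mm9. Promoters came from RefSeq (GRCm38.p6) and were placed on mm9 by exact match. Scripts ran in Python 3.11.15 with numpy 2.4.6, pandas 2.3.3 and matplotlib 3.10.9 and were tested on simulated data.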

Additional observations from a re-analysis of the deposited data

Results flagged for a closer look

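Several cone genes lay on opposite sides of 0 between the genotypes in the Cd73N and Cd73P fractions. The difference between the fractions was not tested, because each genotype and fraction had 1 library. The values given are the log2 ratio of the library labelled Ezh2-cKO over WT in Cd73P minus that in Cd73N. The members' median ratio was 0.33 for Cd73N and -0.99 for Cd73P, which differ by -1.32. The difference was -1.90 for Opn1sw, -1.83 for Arr3, -1.77 for Gngt2, -1.41 for Opn1mw, -1.38 for Cngb3, -1.34 for Pde6c, -1.33 for Gnat2 and -1.30 for Pde6h. Gnb3 and Cnga3 were not among them, since their level was below that of WT in both fractions.

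Of the other genes known from cones, Kcne2 (-1.57) and Ccdc136 (-1.55) lay on opposite sides in the same way. Sall3 and Slc24a2 did so too (both -0.50), but passed 1.5-fold in neither fraction. Of the 8 rod counterparts with both values, 3 lay on opposite sides in the other way, Gnat1 (2.09), Cnga1 (1.2) and Cngb1 (0.97). The rest had the same sign in both fractions. The rod determinant Nrl was at 1.49. Ezh2 itself was above WT in the Ezh2-cKO library of Cd73N and below it in that of Cd73P, a difference of -0.69. Genes beyond the members, the rod counterparts and Ezh2 are given here where they passed 1.5-fold in a fraction. Of the 49 genes in the lists of other cell types, early response and sex-linked genes, 16 also lay on opposite sides. Among them were Car8 (-1.72), Egr1 (-2.01) and Jun (-2.74). The lists differed, with 6 of 7 amacrine genes, all in the direction of the cone genes, and 0 of 7 Müller glia genes. For the members it was 8 of 10. All 7 Müller glia genes were above 0 in both fractions. Their differences nevertheless ran from -2.12 to -0.29, so they had the same sign as those of the cone genes. In Cd73N WT 5 of the 7 amacrine genes were below 1 FPKM. The share over all genes was not computed.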

How the results depend on the processing

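No paired analysis was possible because each group had 1 library. Of 160 summary values recomputed, 122 kept and 38 moved, and of 274 values of single genes and pairs 129 kept, 144 moved and 1 reversed. Some of the kept summary values could not move. Outside the genotype comparison in Cd73P, the low-value filters left all 10 members in place. A value was taken to have moved when it shifted by more than the normal confidence limit of its counting error. That limit is wider than 1 SE. A count was taken to have moved when it changed by more than 1.5 times. The one that reversed was Cnga3 between genotypes in Cd73N (0.066 after scaling by the FPKM sum). The direction of every members' median held under each alternative. The cause of the shifts was not tested beyond the construction of each alternative. The Cd73P values rest on fewer fragments than the Cd73N values, and nothing here bears on variation between animals or sorts.

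The members' median log2 ratio of Cd73P against Cd73N in WT was -3.96 with a pseudocount of 0.1, -3.50 with 5, -3.99 with none, -3.49 with scaling by the median ratio, -3.42 by the FPKM sum and -3.71 without Opn1mw and Arr3. In the libraries labelled Ezh2-cKO the same settings gave -5.45, -4.92, -5.54, -5.10, -5.16 and -5.25. Between genotypes in Cd73N the median was 0.39 with median scaling and 0.48 with the FPKM sum, and 1 member (Arr3) passed 2-fold. In Cd73P the median was -1.18 with a pseudocount of 0.1, -1.24 with none and -0.66 with 5, and 5 members passed with a pseudocount of 5 and 4 passed 2-fold. Scaling by the median ratio left 6.

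The log2 ratio of Opn1mw over Opn1sw, from lower over upper bound, was -1.02 in Cd73N WT, -1.23 in Cd73N Ezh2-cKO, -1.51 in Cd73P WT and -1.37 in Cd73P Ezh2-cKO. Upper over lower bound gave -0.93 and -1.16 in Cd73N, and a pseudocount of 5 gave -0.92 and -0.57 in Cd73P. The median cone-over-rod ratio was 3.17 and 1.99 in Cd73N Ezh2-cKO with pseudocounts of 0.1 and 5, -6.65 and -5.86 in Cd73P WT with the same, and -7.68 and -6.28 in Cd73P Ezh2-cKO. The median Cd73P percent of the Cd73N level was 7.95% and 8.41% for WT and 2.59% and 2.49% for the Ezh2-cKO label with median and sum scaling.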
